A study of Brassica oleracea with 8 samples.

Results

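Among the 59225 annotated genes of Brassica oleracea whose identifiers begin with Bo, 113 were counted at stepwise higher levels from TO1000 through kale to cabbage. They were picked from the counts themselves. A member had at least 3 reads in each of the 8 libraries, a counts-per-million (CPM) mean of at least 5 in its highest morphotype, after scaling of the libraries by the TMM method, a kale mean at least 2-fold above the TO1000 mean and a cabbage mean at least 2-fold above the kale mean. The count minimum left 22548 genes, called eligible here, of which 19743 reached the level, 2155 of these met the first fold, 2001 met the second, and 116 met both. The auxin transport kinase gene PID (Bo4g182790), LSC30 (Bo3g001360) and the indole glucosinolate methyltransferase gene IGMT4 (Bo9g094320) were among the 116 and were left out, so that the 113 members made up 0.501% of the eligible genes. Because the group means chose the members, all differences between morphotypes given here for members are descriptions and not evidence that such differences exist.

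The RNA came from the upper stem with its young leaves and its apical and lateral meristems, taken 24 days after sowing from plants kept in a chamber with 10 h of light per day. By the paper, plants at harvest had fewest fully expanded leaves in cabbage, more in kale and most in TO1000, with overlapping ranges. Leaf number thus ran opposite to the order of the members, and its part in the differences was not tested. Each morphotype was a single accession, and each library held tissue pooled from 8 plants. TO1000 (var. alboglabra, 3 libraries) is a rapid cycling doubled haploid line, which the paper calls kale-like, and its genome was also the mapping reference. The kale (3 libraries) and the cabbage (2 libraries) are leafy crops. Names of the crops differ between sources: for the kale, var. viridis in the sample labels but var. acephala Red Winter in the paper, and for the cabbage, var. sabadua against var. capitata. Library totals on genes ran from 3016197 to 7539991 counts, so that 3 counts stood for 0.41 CPM in TO1000 replicate 2 and for 1.09 CPM in cabbage replicate 1, the extremes.

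Kale bears spreading leaves along an upright stem, and cabbage folds them over a short stem into a head, whereas rapid cycling lines pass early to flowering. The shoot tip of such plants holds the stem cells and leaf primordia from which these forms grow. A transcript level in pooled shoot tips reflects both how much RNA each cell holds and which cells are present, and in these bulk libraries fewer cells of a type and less RNA per cell cannot be told apart. Leaf growth genes were counted in all morphotypes. ANT (Bo3g153310), a regulator of organ growth, averaged 29.4 CPM in TO1000, 9.76 CPM in kale and 20.4 CPM in cabbage, and the growth-regulating factor gene GRF3 (Bo4g186220) averaged 9.31, 5.08 and 12 CPM. Neither followed the order of the members.

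None of the 113 members has a gene name or a described product in the sources used here, so they are given by identifier, and no role is assigned to them. An identifier holds the chromosome and a serial number along it. CPM is not adjusted for gene length, so a higher CPM of one member than of another is a larger share of reads and not a higher level of transcript.

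As a group the members held 0.0577% to 0.0625% of the counts in the TO1000 libraries, 0.171% to 0.216% in the kale libraries and 0.47% to 0.595% in the cabbage libraries. The median member mean was 2.38 CPM in TO1000, 7.85 CPM in kale and 20.8 CPM in cabbage, while the median over the eligible genes was 12.5, 12.8 and 12.3 CPM. In TO1000 the members therefore lay mostly below the typical eligible gene and in cabbage mostly above it. The rule favours this, since it sets both the folds and a level that eligible genes need not reach, so nothing is read from it. Member means in TO1000 ran from 0.585 to 42.5 CPM, and 16 members were under 1 CPM, 82 between 1 and 10 CPM and 15 between 10 and 100 CPM. In cabbage they ran from 5.19 to 672.5 CPM, with 21 members under 10 CPM, 83 between 10 and 100 CPM and 9 at 100 CPM or more.

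**Figure D1:**
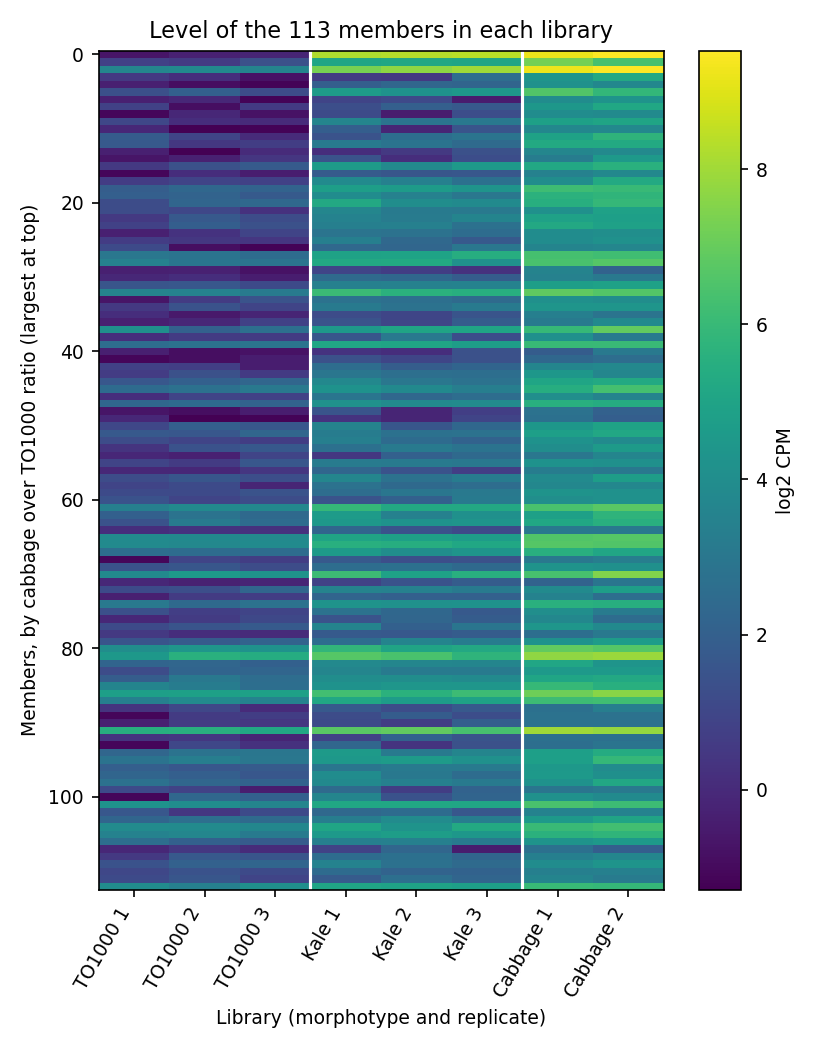
Level of each of the 113 members (rows, ordered by the ratio of cabbage to TO1000 with the largest at the top) in each of the 8 libraries (columns), as log2 CPM by colour, with white lines between the morphotypes. Colours brighten from the 3 TO1000 libraries to the 2 cabbage libraries in nearly all rows, as the choice of members requires, and 2 bright rows near the top, Bo5g131590 and Bo1g055000, reach 661.2 and 672.5 CPM in cabbage.

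The ratio of kale to TO1000 ran from 2.02 to 410.9 with a median of 2.71, and the ratio of cabbage to kale ran from 2.01 to 11.0 with a median of 2.52. Most steps were small. The first step was under 3-fold in 66 members and the second in 80, and 69 members had the larger step between TO1000 and kale while 44 had it between kale and cabbage. Both steps reached 3-fold in 11 members and 4-fold in 1, Bo5g034570. From TO1000 to cabbage the median ratio was 8.19, with 37 members at 10-fold or more and 11 at 20-fold or more.

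**Figure D2:**
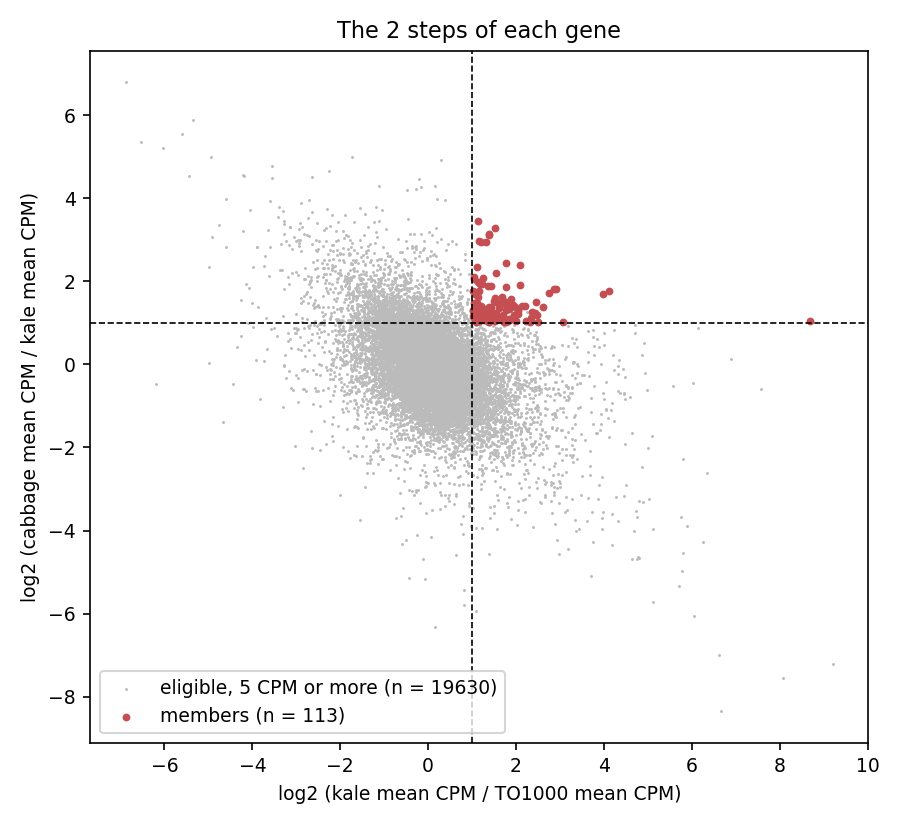
Each eligible gene with a mean of 5 CPM or more in its highest morphotype, by the log2 ratio of the kale to the TO1000 mean (x axis) and of the cabbage to the kale mean (y axis), with the 113 members in red, all other genes in grey and dashed lines at 2-fold. Most members lie close to the corner of the dashed lines, and 1 member, Bo5g131590, stands far to the right at a kale to TO1000 ratio of 410.9.

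At a false discovery rate under 0.05 and a log2 fold change over 1 in edgeR, 100 members were called higher in kale than in TO1000, where 14.2% of all 28126 genes tested were so called. For cabbage over kale 105 members were called beside 11.1% of the genes tested, and for cabbage over TO1000 113 were called beside 11.5%. Both steps were called in 95 members beside 0.683% of the genes tested. The members were chosen on these same contrasts, so nothing is read from the shares. Of the 13 members not called at the first step, 11 had fewer than 30 reads over the 3 TO1000 libraries, and 3 members were called at neither step.

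Libraries of neighbouring morphotypes did not overlap in 100 members (88.5%), each with all kale libraries above all TO1000 libraries and both cabbage libraries above all kale libraries, where 3.59% of the eligible genes were so arranged. Again the rule favours this arrangement and nothing is read from it. All 13 members with overlap had it between TO1000 and kale (26.4% of the eligible genes had no overlap there in the direction of kale), and 1 of them, Bo9g014210, also had it between kale and cabbage, where 112 members had none (29.0% of the eligible genes). In 51 members the closest libraries of neighbouring morphotypes were at least 1.5-fold apart at both steps, and in 16 at least 2-fold. The rule favours wide gaps too, and the share over all eligible genes was not computed, so these 2 counts only describe the members.

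Bo5g131590 had the largest difference from TO1000. Its counts were 4, 6 and 6 in the TO1000 libraries, 2197, 1787 and 1408 in the kale libraries and 1647 and 4333 in the cabbage libraries. On the CPM scale these were 0.63, 0.82 and 0.885 in TO1000, 302.1, 320.5 and 336.7 in kale, and 596.2 and 726.2 in cabbage. The gene was thus close to the counting floor in all TO1000 libraries and among the most read members in both crops, with no overlap. The mean was 410.9-fold higher at the first step, going from 0.778 ± 0.133 (SD, n = 3) to 319.7 ± 17.3 (SD, n = 3), and 2.07-fold at the second, to 661.2 ± 91.9 CPM (SD, n = 2). The second step lay near the 2-fold limit, and without cabbage replicate 2 its log2 fold change was 0.90 and it was no longer called.

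Bo1g055000 had the highest cabbage mean. It was counted at 12.6, 14.5 and 12 CPM in TO1000, at 157.4, 208.4 and 251.5 CPM in kale and at 608.9 and 736.2 CPM in cabbage. Unlike Bo5g131590 it was well counted in TO1000, and both its steps were wide, 15.8-fold and 3.27-fold, with every library of 1 morphotype at least 2-fold from those of the next. Bo4g122930 shared this shape at a lower level, with 1.73, 1.5 and 2.66 CPM in TO1000, 33.5, 35.5 and 33.7 CPM in kale and 152.0 and 82.1 CPM in cabbage. Its kale libraries nearly coincided while its cabbage libraries were far apart, so the second ratio of 3.42 rests on a cabbage mean of 117.1 ± 49.4 CPM (SD, n = 2).

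The other members at 100 CPM or more in cabbage were already well counted in TO1000. Bo7g005560 had the highest TO1000 mean of all members, with 44.9, 46.2 and 36.6 CPM there, 106.8, 120.9 and 83.5 CPM in kale and 252.7 and 223.1 CPM in cabbage. Its morphotypes stood apart by near-equal steps of 2.44-fold and 2.29-fold. Bo7g063830 was nearly constant in TO1000, at 28.2, 29.0 and 29.2 CPM, and was counted at 75.1, 49.3 and 69.1 CPM in kale and at 140.8 and 196.2 CPM in cabbage. Again no libraries overlapped, and the ratios were 2.24 and 2.61. Bo5g113720 was less even, with 22.2, 47.5 and 42.8 CPM in TO1000, 103.0, 86.8 and 53.3 CPM in kale and 213.9 and 235.3 CPM in cabbage. TO1000 replicate 2 and kale replicate 3 came close to each other, and without TO1000 replicate 1 or without kale replicate 1 the first step was no longer called, with log2 fold changes of 0.85 and 0.88.

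Bo3g018920, Bo3g048350 and Bo3g044590, all on chromosome 3, completed this group. Bo3g018920 averaged 10.8 ± 1.42, 53.8 ± 12.6 and 109.3 ± 12.8 CPM (SD, n = 3, 3 and 2) in TO1000, kale and cabbage, and Bo3g048350 averaged 18.6 ± 2.43, 42.8 ± 12.9 and 113.1 ± 13.7 CPM. In Bo3g044590 the cabbage libraries differed most, 82.2 against 175.6 CPM, and the lower of them was close to kale replicate 1 at 70.8 CPM.

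**Figure D3:**
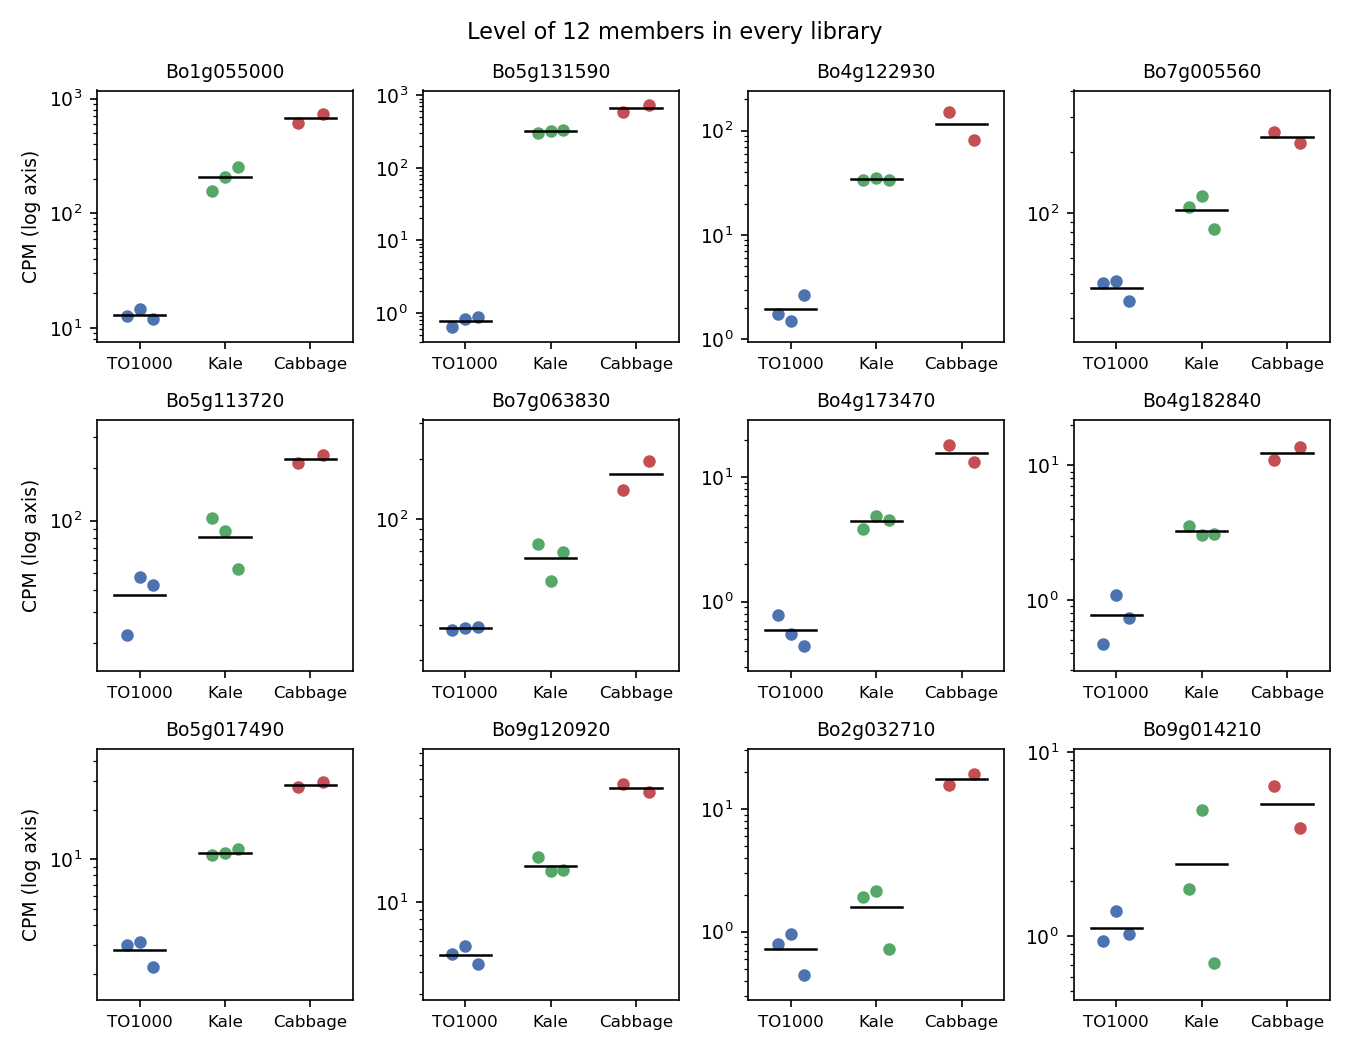
CPM (log axes, different in each panel) of 12 members in each library (points), with the mean of each morphotype as a black line. Bo5g131590 jumps from under 1 CPM in TO1000 to 302.1 CPM or more in kale, Bo5g017490 and Bo9g120920 show tight groups with 2 clear steps, and Bo9g014210 at lower right has overlapping groups.

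The 16 members whose neighbouring morphotypes lay at least 2-fold apart in every library included several of moderate level. Among them, Bo5g017490 was counted at 2.99, 3.14 and 2.21 CPM in TO1000, 10.6, 10.9 and 11.5 CPM in kale and 27.5 and 29.7 CPM in cabbage. Replicates nearly coincided in kale, and the ratios were 3.95 and 2.60. Bo9g120920 had 5.04, 5.60 and 4.43 CPM in TO1000, 17.9, 14.9 and 15.1 CPM in kale and 46.3 and 42.1 CPM in cabbage. Its ratios were 3.17 and 2.77, and no library departed from its group by as much as either step. Bo9g028890 had the same shape at higher counts, with 14.6, 13.5 and 14.6 CPM in TO1000, 46.1, 43.2 and 36.1 CPM in kale and 102.1 and 96.2 CPM in cabbage.

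Lower counts gave similar shapes with coarser steps. Bo4g173470 had 5, 4 and 3 reads in TO1000, 28, 27 and 19 in kale and 50 and 79 in cabbage, which gave ratios of 7.45 and 3.55. At such counts the first ratio is set by a handful of reads. Bo4g182840 was counted at 0.472, 1.09 and 0.738 CPM in TO1000, 3.57, 3.05 and 3.11 CPM in kale and 10.9 and 13.7 CPM in cabbage, with ratios of 4.23 and 3.79 and no overlap. Bo5g137740 had a ratio of 7.31 from 2.99 to 21.9 CPM and a second of 3.54 to 77.5 ± 26.1 CPM (SD, n = 2), while Bo7g061500 had 5.44 and 2.82, from 4.42 through 24.0 to 67.7 CPM.

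In 14 members the second step was 4-fold or more. Bo2g032710 had the largest, 11.0-fold, with 0.787, 0.956 and 0.443 CPM in TO1000, 1.92, 2.15 and 0.717 CPM in kale and 15.6 and 19.4 CPM in cabbage. Cabbage stood well above both others, whereas kale replicate 3 fell inside the TO1000 range and the first step was not called, except without that library (log2 fold change 1.43). Bo9g059480 had a second step of 9.72-fold, with 1.42, 1.09 and 0.59 CPM in TO1000, 1.51, 1.43 and 5.98 CPM in kale and 20.6 and 37.2 CPM in cabbage. Kale replicate 3 was far above the others, while the remaining kale libraries differed little from TO1000 replicate 1. The first step was not called with all libraries in edgeR, but it was called in DESeq2 (log2 fold change 1.43), with the replicate block (1.34), and without kale replicate 1 (1.72) or 2 (1.68). Bo3g143350 had the more even kale libraries, with 1.73, 0.546 and 1.48 CPM in TO1000, 2.47, 3.95 and 3.35 CPM in kale and 21.7 and 35.9 CPM in cabbage. Its groups did not overlap, and the ratios were 2.60 and 8.84, though the call of the first step was lost without TO1000 replicate 2 (0.98) or kale replicate 2 (1.17). Bo9g105990, Bo3g055630, Bo1g019560 and Bo7g082120 had second steps of 8.72, 7.89, 7.79 and 7.77, and the first 3 of these had kale libraries within the TO1000 range.

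Bo5g034570, the single member with both steps over 4-fold, was counted at 0.945, 0.410 and 0.443 CPM in TO1000, at 3.85, 0.897 and 2.87 CPM in kale and at 13.0 and 13.6 CPM in cabbage. Kale replicate 2 lay just below TO1000 replicate 1, so that this member too had an overlap at the first step despite a ratio of 4.24. Bo5g023400 had the cleaner large second step, with 3.31, 1.37 and 1.62 CPM in TO1000, 8.66, 7.17 and 5.5 CPM in kale and 38.7 and 39.2 CPM in cabbage, at ratios of 3.39 and 5.48.

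The 3 members called at neither step were also those with the most overlap between morphotypes. Bo3g035000 had 0.472, 5.05 and 4.13 CPM in TO1000, 12.4, 2.69 and 4.54 CPM in kale and 18.1 and 14.6 CPM in cabbage. Kale replicates 2 and 3 both lay inside the TO1000 range. Bo2g041720 had 0.472, 2.05 and 1.18 CPM in TO1000, 4.81, 1.26 and 2.63 CPM in kale and 6.15 and 7.37 CPM in cabbage, and Bo9g014210 had 0.945, 1.37 and 1.03, then 1.79, 4.84 and 0.717, then 6.52 and 3.85 CPM. In both, 1 kale library fell to the level of TO1000, and in Bo9g014210 another kale library exceeded cabbage replicate 2. Each gained a call when 1 library was left out: without kale replicate 1 the second step of Bo3g035000 had a log2 fold change of 2.18 and that of Bo2g041720 of 1.85, and without kale replicate 2 that of Bo9g014210 was 1.86.

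At the edge of the rule, Bo9g133520, Bo1g014450 and Bo8g027400 had smaller steps of 2.015, 2.016 and 2.024, and Bo9g008900, Bo4g194420 and Bo2g002610 missed it with 1.990, 1.987 and 1.975. Bo8g027400, just inside, was counted at 15.7, 10.7 and 17.1 CPM in TO1000, 33.5, 30.7 and 28.0 CPM in kale and 63.7 and 60.7 CPM in cabbage, without overlap. In Bo9g133520 and Bo1g014450 the second step depended on cabbage replicate 2. Bo9g133520 was counted there at 60.3 CPM against 28.2 CPM in cabbage replicate 1, and without replicate 2 its log2 fold change went from 1.04 to 0.35 and the call was lost, as it also was without kale replicate 3 (0.92) and with the replicate block (0.87). Bo1g014450 had 27.7 against 14.8 CPM, and its value went from 1.04 to 0.48 without cabbage replicate 2 and to 0.92 without kale replicate 3, with the call lost in both. The calls of Bo8g027400 were lost in several of these fits too, with values of 0.90 to 0.99. When each library was left out in turn, between 82 and 107 of the 113 members still met the rule, and 42 met it every time. Leaving out kale replicate 1 cost the most members, 31.

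Kale replicate 1 was the highest kale library in 63 members (55.8%), against 34.8% of the eligible genes, and kale replicates 2 and 3 in 25 members each. In TO1000 the highest library was replicate 1 in 36 members, replicate 2 in 46 and replicate 3 in 31. Cabbage replicate 2 exceeded replicate 1 in 67 members (59.3%, against 51.4% of the eligible genes), by a median log2 difference of 0.09 against 0.02. The part of kale replicate 1 in the members' kale means was not tested beyond leaving it out.

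**Figure D4:**
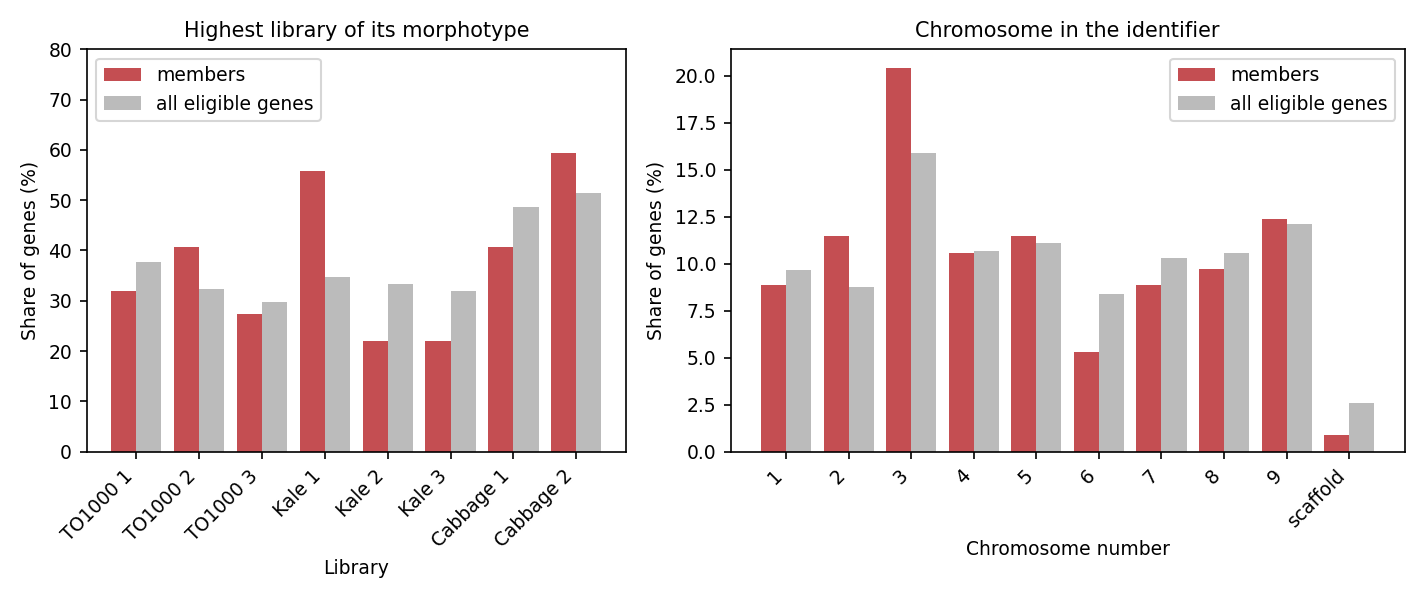
Left, share of the 113 members (red) and of all 22548 eligible genes (grey), in percent, for which each library was the highest of its morphotype. Right, share of each set by the chromosome number in the identifier. Kale 1 was highest in 55.8% of members against 34.8% of eligible genes, and chromosome 3 held 20.4% against 15.9%.

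Replicates of members spread somewhat more than those of other genes. The median SD of log2 CPM between replicates was 0.318 for members and 0.202 for eligible genes in TO1000, 0.322 and 0.261 in kale, and 0.224 and 0.208 in cabbage. Within genes under 5 CPM in TO1000 it was 0.381 for 82 members and 0.320 for eligible genes, and within those at 5 CPM or more it was 0.259 for 31 members and 0.181. Kale had the same direction, with 0.434 for 37 members and 0.389 for eligible genes under 5 CPM, and 0.282 for 76 members and 0.238 at 5 CPM or more. In cabbage, with all members at 5 CPM or more, the values were 0.224 and 0.187. That range has no upper limit, so members and eligible genes may differ in level within it, as they may under 5 CPM. The rule used the means of these same libraries, and an outlying library can carry a gene past a fold limit. No test was made of the wider spread, and nothing is read from it.

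Chromosome and serial number were not used by the rule. The members came from all 9 chromosomes, with 23 on chromosome 3, 14 on chromosome 9, 13 each on chromosomes 2 and 5, 12 on chromosome 4, 11 on chromosome 8, 10 each on chromosomes 1 and 7, 6 on chromosome 6 and 1 on an unplaced scaffold. Chromosome 3 held 20.4% of members and 15.9% of eligible genes, chromosome 2 held 11.5% and 8.75%, and chromosome 6 held 5.31% and 8.41%. Relative to its eligible genes, chromosome 2 thus held slightly more members than chromosome 3.

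Few members were close neighbours in the genome. Identifiers within 100 serial numbers of another member were found for 8 of 113 (7.08%), and 3.9% of the eligible genes outside the set had a member so near. In the sets that the same rule gives for the other orders of the morphotypes, this share was 9.68% for cabbage, kale, TO1000 from low to high, 15.8% for cabbage, TO1000, kale, and 0% to 3.77% for the remaining orders, so that the share of the members lay within the range of the other sets. They formed 4 pairs. Bo1g055000 was paired with Bo1g054930, which was counted far lower, at 0.945, 1.09 and 0.738 CPM in TO1000, 5.5, 5.02 and 3.59 CPM in kale and 10.9 and 8.55 CPM in cabbage. Both had their larger step between TO1000 and kale. The second step of Bo1g054930 had a log2 fold change of 1 and was not called. It was called with RLE factors and without TO1000 replicate 2, kale replicate 1 or kale replicate 2. Bo4g131060 and Bo4g131070 carry adjoining serial numbers. Bo4g131060 was counted at 17.4 and 8.88 CPM in cabbage replicates 1 and 2 and Bo4g131070 at 11.6 and 4.36 CPM, so that replicate 1 was the higher in both. Kale replicate 2 set Bo4g131060 apart, with 8.43 CPM against 3.02 and 2.39 CPM in the others. Without kale replicate 1 the second step of Bo4g131060 had a log2 fold change of 1.17 and was no longer called. Without cabbage replicate 1 the second step was no longer called in either, with log2 fold changes of 0.94 for Bo4g131060 and 1.43 for Bo4g131070, and without kale replicate 2 the first step of Bo4g131060 was 0.99 and not called.

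Bo3g055630 and Bo3g055650 differed in shape, with ratios of 2.24 and 7.89 in the former and 2.53 and 2.07 in the latter. Cabbage replicate 2 was the higher for Bo3g055630 (23.3 against 9.41 CPM) and replicate 1 for Bo3g055650 (23.9 against 17.3 CPM). Without kale replicate 1 the first step of Bo3g055650 was no longer called (log2 fold change 0.82) while its second step was (1.51), and without kale replicate 2 the first step of Bo3g055630 was called (1.45). The pair Bo5g027730 and Bo5g027750 had ratios of 2.92 and 2.84 and of 2.48 and 2.54, with TO1000 levels between 0.82 and 2.07 CPM. The second step of Bo5g027750 depended on cabbage replicate 1 (13 against 5.87 CPM), without which its log2 fold change went from 1.28 to 0.67 and the call was lost. That of Bo5g027730 went from 1.6 to 1.21 without cabbage replicate 2, also with loss of the call, and the first step of both lost its call without TO1000 replicate 1 or 2. The first step of both also lost its call without kale replicate 2, and that of Bo5g027730 without kale replicate 3. Without kale replicate 1 the second step of Bo5g027750 had a log2 fold change of 1.07 and was not called. How reads shared by near-identical copies were handled could not be examined, so members that lie side by side are uncertain as separate genes.

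Eligible genes next to a member, up to 10 serial numbers away, were mostly not ordered like it. Of 98 such genes outside the set, 24 had means in the order TO1000, kale, cabbage at any fold (24.5%), beside 17.8% of all eligible genes outside the set. In the reverse order there were 18.4% beside 16.6%.

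The 79 genes that the study discusses by name, in lists on branching, leaf form, trichomes, flowering, defense and nutrients, held none of the members. Those lists were drawn up from these libraries and are not independent of them. Of the 46 that were eligible, 3 met the rule, beside 0.514% of all eligible genes. They are those left out above, which is why the lists hold no member. Of the 74 tested, 48 were called higher and 25 lower in kale than in TO1000, and 25 were called higher and 47 lower in cabbage than in kale. Over all genes tested, 14.2% were called higher in kale than in TO1000 and 11.1% higher in cabbage than in kale. Shares called lower were not computed. Within 100 serial numbers of a gene on those lists lay 5 members. The share of all eligible genes lying so near was not computed, so nothing is read from this number.

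Bo4g182840 lies 50 serial numbers from PID, which directs auxin efflux and which averaged 1.44, 6.79 and 16.3 CPM in TO1000, kale and cabbage, the same order. Bo9g173400 lies near the floral repressor gene FLC (Bo9g173370), which averaged 3.31, 23.1 and 2.36 CPM with its peak in kale. Bo9g173400 itself was counted at 3.94, 4.51 and 3.39 CPM in TO1000, 15.9, 10.9 and 7.89 CPM in kale and 51.0 and 55.6 CPM in cabbage. The contrast is in cabbage, where the member was at its highest and FLC was not. Bo4g122930 lies near the leaf growth gene GRF4 (Bo4g122960), which averaged 7.96, 2.77 and 5.29 CPM and so was lowest where the member was intermediate.

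Bo8g102480 lies near AXR1 (Bo8g102450), a gene of auxin response, for which TO1000 had 0 counts in every library, kale averaged 6.62 CPM and cabbage 0.0838 CPM. The member was counted at 2.05, 1.09 and 1.03 CPM in TO1000, 12.5, 7.35 and 8.13 CPM in kale and 29.3 and 32.7 CPM in cabbage, with ratios of 6.71 and 3.32. Bo5g027750 lies near the myosin gene XIK (Bo5g027850), which was scarcely counted in any morphotype, at 1.57, 0.0458 and 0.878 CPM. Of these 5 listed genes, PID alone had means in the order of the members, beside 17.8% of all eligible genes outside the set. AXR1 and XIK were not eligible. The lists were drawn up from these libraries, so nothing is read from this count.

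The same rule applied to the other orders of the 3 morphotypes gave 93 genes for cabbage, kale, TO1000 from low to high, 106 for TO1000, cabbage, kale, 63 for kale, TO1000, cabbage, 58 for kale, cabbage, TO1000 and 57 for cabbage, TO1000, kale. The rising order thus held more genes than any other, though only slightly more than the order with kale at the top and TO1000 at the bottom. The other orders were counted with the main scaling and limits only, so whether this ranking holds under other settings was not tested. The minimum of 3 counts stood for 0.41 CPM in TO1000 replicate 2 and 1.09 CPM in cabbage replicate 1, so it did not weigh equally on all orders. Libraries did not overlap in 88.5% of the rising genes, in 72% of the falling ones and in 82.5% to 93.0% of the rest. At any fold, the order of the members was shown by 18.2% of the eligible genes and the other orders by 13.6% to 18.3%, so that it was not the most common among small differences.

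**Figure D5:**
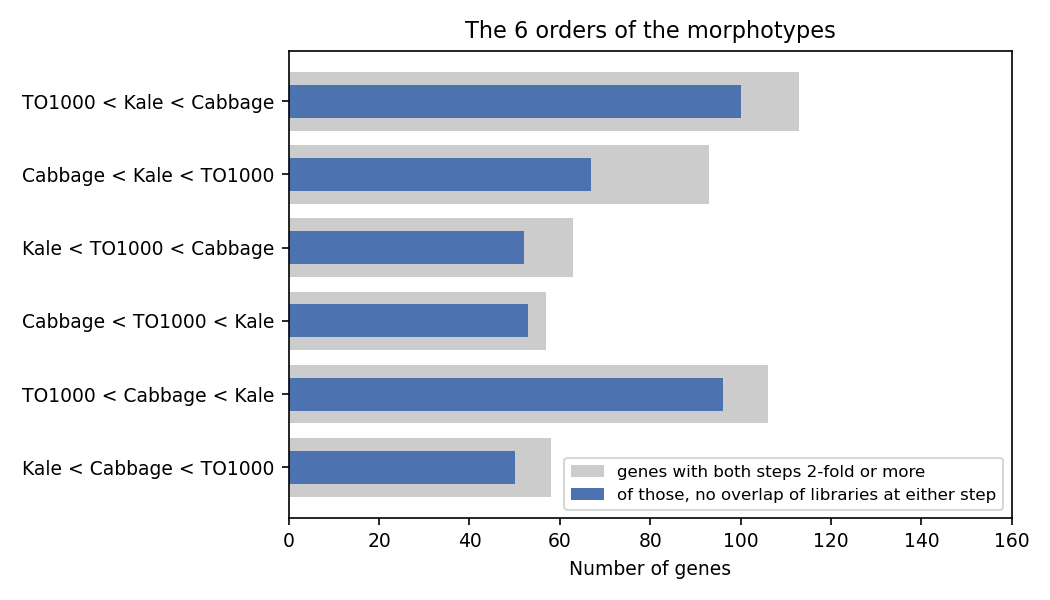
Number of genes (x axis) with both steps at least 2-fold in each of the 6 possible orders of the morphotype means (grey bars), and how many of them had no overlap between libraries at either step (blue bars). The order TO1000, kale, cabbage has 113 genes, 100 of them without overlap, beside 93 and 67 for the reverse order.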

How the data were processed

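The authors made cDNA from polyadenylated RNA without DNase treatment, amplified it by PCR, used Cutadapt 2.4 to trim the single-end reads, aligned these against the TO1000 genome by STAR, and deposited the raw read counts per gene that STAR gave; no molecular identifiers are named, so PCR copies count as reads. Each file holds 1 count per gene, and whether strand was used in counting is not given in the sources used here, so genes that overlap on opposite strands cannot be told apart. The 8 libraries were grouped by their titles. The labels call the replicates biological, each a pool of plants. No 2 replicates agreed within sampling noise (the smallest chi-square per gene was 5.74). Another cabbage replicate named in the paper was not analysed here.

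Counts were scaled with TMM factors in edgeR 4.0.16 (R 4.3.3). Genes passing filterByExpr (minimum count 10, minimum total 15) were fitted over all 8 libraries by the quasi-likelihood method with morphotype as the only term (biological coefficient of variation 0.188), and two-sided p-values were adjusted by Benjamini-Hochberg over the 3 comparisons jointly. SDs of log2 CPM used a prior count of 2. The procedure was tested on simulated counts. Alternatives were DESeq2 1.42.0, other scalings, minimums, folds and tests, a replicate block, thinned counts, and fits with each library left out.

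Members and lists were chosen with earlier results of these data known. By the rule for named genes the text names the 5 members with the highest cabbage mean, the 5 with the largest ratio of cabbage to TO1000, the 5 with the widest gaps, the 3 with the largest first and the 3 with the largest second step relative to the other, those nearest the threshold, up to 3 with most overlap, and those in runs of serial numbers; the other members named were chosen after their values were seen. The few gene names come from the paper, since the RefSeq table at hand holds none of the Bo identifiers, so no sequences are shown.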

Additional observations from a re-analysis of the deposited data

How the results depend on the processing

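The number of members depended most on the limits. It was 223 with no count minimum, 63 with a minimum of 10 counts, 385 at 1.5-fold, 11 at 3-fold and 75 after thinning to the smallest library (61 of them in the set). RLE and upper-quartile factors gave 111 and 103, and plain CPM gave 83, of which 73 were in the set; plain CPM moved the median log2 difference of all genes by -0.30 for kale over TO1000 and by 0.11 for cabbage over kale. Leaving out each library gave 96 to 125 members, 100 to 107 of the original members without overlap, 76 to 96 called at the first step, 71 to 106 at the second and 112 to 113 for cabbage over TO1000; the lowest counts were those without kale replicate 1 (76) and without cabbage replicate 2 (71), where 1 cabbage library was assumed to vary like the other groups. Leaving out a library can hardly create an overlap, so the count of members without overlap could scarcely fall and tests nothing. Tested against a 2-fold change with glmTreat, 45 members were called at the first step and 30 at the second. DESeq2 called 93, 100 and 112. Libraries with the same replicate number did not deviate together (1 of 7 pairs with a correlation over 0.1), and with the replicate block 99, 97 and 113 members were called. For these alternative fits calls were counted among members only. The share of all genes tested was not computed, so nothing about the members is read from these counts. Of 696 comparisons of the log2 fold changes of named genes with an alternative, 631 kept direction and call, 42 lost the call, 23 gained it and 0 reversed. The TO1000 mean of 36 members rests on fewer than 30 reads.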

Other observations

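A further 110 genes had the same folds and level but fewer than 3 reads in at least 1 library, and 17 of them had 0 reads in all TO1000 libraries. These examples were chosen after their values were seen. Bo2g166530 had 4, 7 and 2 reads in TO1000, 594, 581 and 298 in kale and 508 and 1341 in cabbage, which gave means of 0.627, 85.7 and 204.3 CPM. Bo3g055140 had 0, 1 and 5 reads in TO1000, 196, 152 and 100 in kale and 493 and 820 in cabbage, and the adjoining Bo3g055130 had 0, 0 and 1, then 95, 58 and 39, then 154 and 338 reads. Both were thus nearly without reads in TO1000 and ordered alike in the crops. Bo5g133420 had 0 reads in every TO1000 library, 54, 18 and 20 in kale and 75 and 212 in cabbage. In Bo2g024150 the order rested on few kale reads, with 0, 4 and 0 reads in TO1000, 5, 4 and 0 in kale and 504 and 1254 in cabbage.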
